A study of Drosophila melanogaster with 4 samples.

Results

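Polyhomeotic is encoded by a pair of neighbouring genes, ph-p and ph-d, near the distal end of the Drosophila X chromosome, and the results below describe Polycomb (Pc) enrichment at their locus. Chromatin came from Drosophila melanogaster embryos of the Oregon-R-modENCODE strain, wild type in genotype, aged 14 to 16 h and fixed with 1.8% formaldehyde. Both groups of the series share this strain, genotype and stage. They are 2 Pc ChIP libraries (replicates 1 and 2) and 2 input libraries, and only the ChIP libraries carried lists of enriched regions. The members were selected on position, as every listed region that overlapped X 1990000 to 2060000 on FlyBase r5, the 70 kb window given for the ph locus. The locus itself was picked from earlier results of these lists, in which its broad region had ranked near the top by score. Score, width and position are therefore described here without tests. The window held 4 regions of 2594 in all, with 2 of 1189 in replicate 1 and 2 of 1405 in replicate 2.

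Polycomb group proteins keep developmental genes silent through cell division. Polycomb repressive complex 1 contains Pc, which reads methylated histone H3 through its chromodomain, together with Polyhomeotic, Posterior sex combs and Sex combs extra. Polyhomeotic ends in a SAM domain through which its molecules join into chains. ph-p and ph-d are tandem copies with overlapping function, and their locus is a known target of the Polycomb proteins themselves. The question put to the lists was how Pc, one subunit of the complex, was distributed over the locus of another.

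The region lists name no genes, so the pair was placed by the window alone. In the gene table of Release 6, a later assembly used here only for gene order, the protein-coding genes in this part of X run CG16903, Unc-76, csw, ph-d, ph-p, D2hgdh, Pgd and bcn92. Unc-76 binds a kinesin, csw encodes the corkscrew tyrosine phosphatase of receptor signalling, and Pgd encodes phosphogluconate dehydrogenase of the pentose phosphate pathway. Which of these neighbours lie under the enriched sequence was not analysed here, and neither were the start sites of ph-p and ph-d.

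The Pc enrichment listed in the window was 1 broad, high-scoring region and, to its left, 1 narrow region with a far lower score in each library. The broad region, called the ph region below, lay at X 2010621 to 2043178 in the first library, replicate 1 (32.6 kb). Its position in replicate 2 was X 2010595 to 2043791 (33.2 kb). It took up 46.5% and 47.4% of the window. Its score, the authors' own value per region on an unstated scale, was 2.56 in replicate 1 and 2.53 in replicate 2. Over the libraries the ph region averaged 32.9 ± 0.45 kb in width and 2.54 ± 0.023 in score (SD, n = 2). The libraries thus listed nearly the same block. The score values were also close, but whether the lists share one scale is not stated. The labels do not say whether they came from separate embryo collections, so this spread may be technical. Read counts were not in the lists, and the depth behind each value is unknown.

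The narrow members did not coincide between the libraries. In replicate 1 the narrow region ran from 1999832 to 2001318 (1487 bases) and scored 0.488, and 30.4% of the list scored lower. In replicate 2 it ran from 1997143 to 1998615 (1473 bases) and scored 0.636, and 57.7% of the list scored lower. The 2 narrow regions were 1216 bases apart, so neither was found in the other list. This was the common outcome for narrow regions, since 34.4% of the replicate 1 regions under 2 kb and 31.7% of those in replicate 2 overlapped a region of the other list. Of the narrow regions that overlapped none, 75 of 351 in replicate 1 and 54 of 478 in replicate 2 had a region of the other list within that same distance.

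The window edges decided which regions beside the broad one were counted. The nearest region outside on the left ended 12938 bases before the window in replicate 1 (X 1974927 to 1977062, score 0.630) and 4406 bases before it in replicate 2 (X 1984077 to 1985594, score 0.615). The nearest on the right were X 2200279 to 2202377 in replicate 1 (score 0.609) and X 2101611 to 2102970 in replicate 2 (score 0.693). These 4 regions measured 1360 to 2136 bases, and the broad block was the only region of over 10 kb in either list between them.

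**Figure D1:**
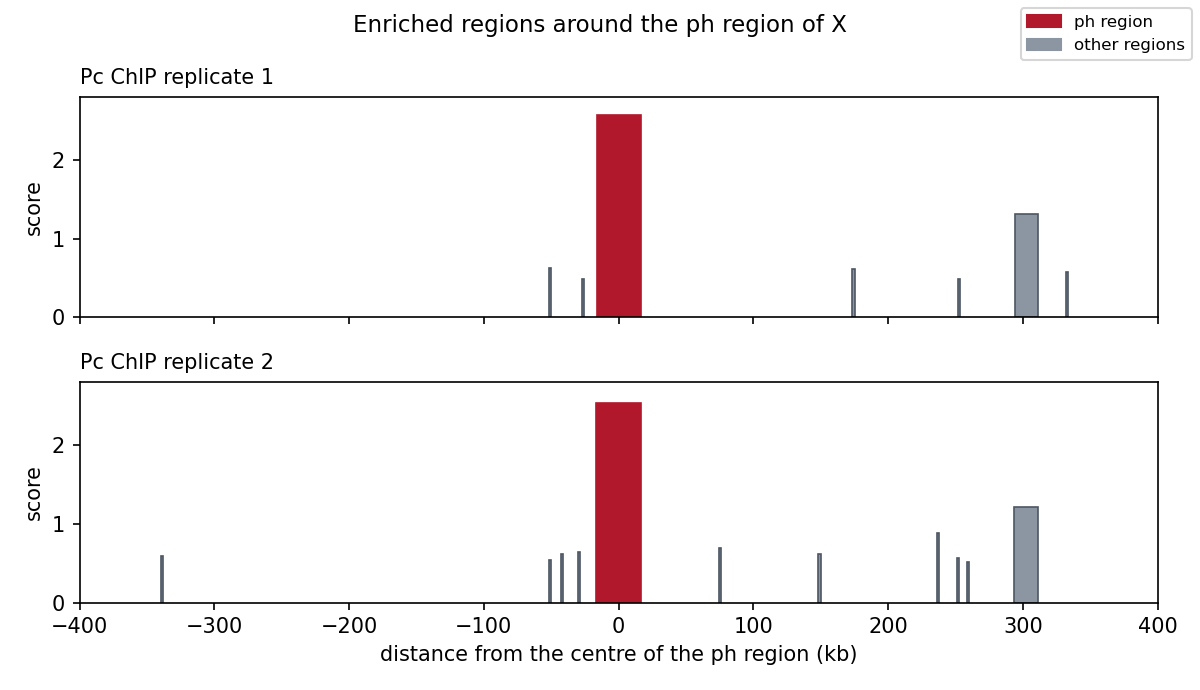
Enriched regions of X within 400 kb of the centre of the ph region, drawn to scale along the horizontal axis (kb) with the authors' score as height, for Pc ChIP replicate 1 (upper) and replicate 2 (lower). The ph region scored 2.56 in replicate 1 and 2.53 in replicate 2, and the next broad block, to its right, scored 1.31 and 1.21.

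In both libraries the ph region had the highest score of any region of 20 to 50 kb. It scored 2.56 in replicate 1, against a median of 1.28 and a range of 0.773 to 1.88 over the other 84 regions of that width. In replicate 2 it scored 2.53, against a median of 1.26 and a range of 0.803 to 2.03 over the other 92. The distance to the next score down was 0.676 in replicate 1 and 0.495 in replicate 2, wider than the interquartile range of the other regions (0.304 and 0.329). From the second to the third score it was 0.058 in replicate 1 and 0.269 in replicate 2. As the locus was picked with its score known, the lead is a description only. In width it was unremarkable for its class, ranking 30 of 85 in replicate 1 and 33 of 93 in replicate 2.

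The regions next below it differed in part between the libraries. A 3L region came second in both. It scored 1.88 in replicate 1 (8992206 to 9040434, 48.2 kb) and 2.03 in replicate 2 (8992616 to 9040488, 47.9 kb). In replicate 1 it was followed by X 17645899 to 17687994 (42.1 kb, score 1.82) and 2L 20765190 to 20787714 (22.5 kb, score 1.75). In replicate 2 it was followed by 3R 20900405 to 20923653 (23.2 kb, score 1.76) and 2L 3813207 to 3862347 (49.1 kb, score 1.69). The ph region led the class in both lists, whereas the next 2 places after the 3L region went to other regions in each.

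The 20 regions next in width to the ph region, 10 narrower and 10 wider, spanned 29.5 to 37.3 kb in replicate 1 and scored 0.822 to 1.62, with a median of 1.28. In replicate 2 they spanned 29.8 to 36.5 kb and scored 0.904 to 1.68, with a median of 1.29. These regions are part of the class above, so their lower scores are no further evidence of the rank.

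**Figure D2:**
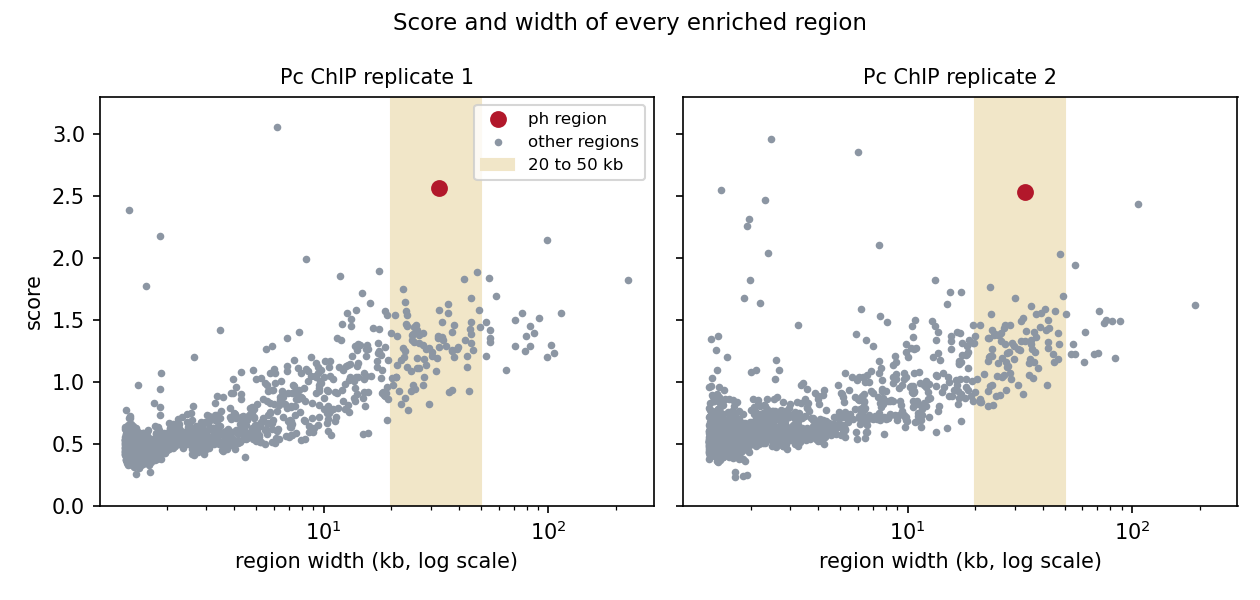
Score (the authors' unit) against width (kb, log scale) for every enriched region of Pc ChIP replicate 1 (left) and replicate 2 (right), with the width class of 20 to 50 kb shaded. The ph region, at 32.6 and 33.2 kb, lies above all other regions in the shaded class, whose highest other scores were 1.88 and 2.03.

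Over all widths the ph region ranked 2 of 1189 regions by score in replicate 1 and 4 of 1405 in replicate 2. The only region above it in replicate 1 was 3R 27893573 to 27899780, a region of 6.21 kb by the end of that arm (score 3.05). In replicate 2 the same part of 3R (27893706 to 27899743, score 2.85) and 2 regions on the unplaced scaffolds, U, scored higher. On X, 2L, 2R, 3L, 3R and chromosome 4 alone it was second in both. Next below it on these arms was a far wider 2R region, at 2.14 in replicate 1 (98.5 kb) and 2.43 in replicate 2 (106.4 kb), so the lead over the next arm region was narrow in replicate 2. It scored highest among the 207 regions of at least 10 kb in replicate 1 and the 210 in replicate 2.

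On its own chromosome the ph region had the top score, first of 233 X regions in replicate 1 and first of 278 in replicate 2. It held 2.03% and 2.16% of the enriched bases of X. The X region next by score was 17645899 to 17687994 in replicate 1 (1.82) and 3692844 to 3706050 in replicate 2 (1.82). The median X region scored 0.607 in replicate 1 and 0.696 in replicate 2. Among X regions of 20 to 50 kb, the other 14 in replicate 1 scored 1.03 to 1.82, and the other 13 in replicate 2 scored 1.05 to 1.59.

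The ph region was listed as 1 block in both libraries. Replicate 2 covered the whole of the replicate 1 region with a single region, and replicate 1 covered 98.1% of the replicate 2 region with a single region. In the class of 20 to 50 kb, 54.1% of the replicate 1 regions and 59.1% of the replicate 2 regions were overlapped by exactly 1 region of the other list. These shares count 1 direction only and a partner of any width. One-to-one matches with both regions in the class, like that of the ph region, numbered 29, among 85 class regions in replicate 1 and 93 in replicate 2. The other replicate 1 regions of the class were covered to a median of 97.6%, and 10 of the 84 were covered in full. Those of replicate 2 had a median of 99.1%, and 58 of the 92 were covered further than the ph region.

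The left edge of the ph region was placed almost identically in the libraries, and the right edge less so. The left edge differed by 26 bases, with replicate 2 starting first, and the right edge by 613 bases, with replicate 2 ending later. Both lists held a one-to-one match, with both regions measuring 20 to 50 kb, in 29 cases. Over the other 28 such pairs the left edges differed by 9 to 1728 bases (median 438.5) and the right edges by 7 to 7385 bases (median 440). Counting from the smallest difference, the ph region was 3 of 29 at its left edge and 21 of 29 at its right edge. Its width differed by 639 bases, against a median of 599 bases, and its score by 0.0318, against a median of 0.0985. Apart from the left edge, the block was placed about as closely as broad pairs usually were. Its score difference was 5 of 29 from the smallest, though whether the lists share one scale is not stated.

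**Figure D3:**
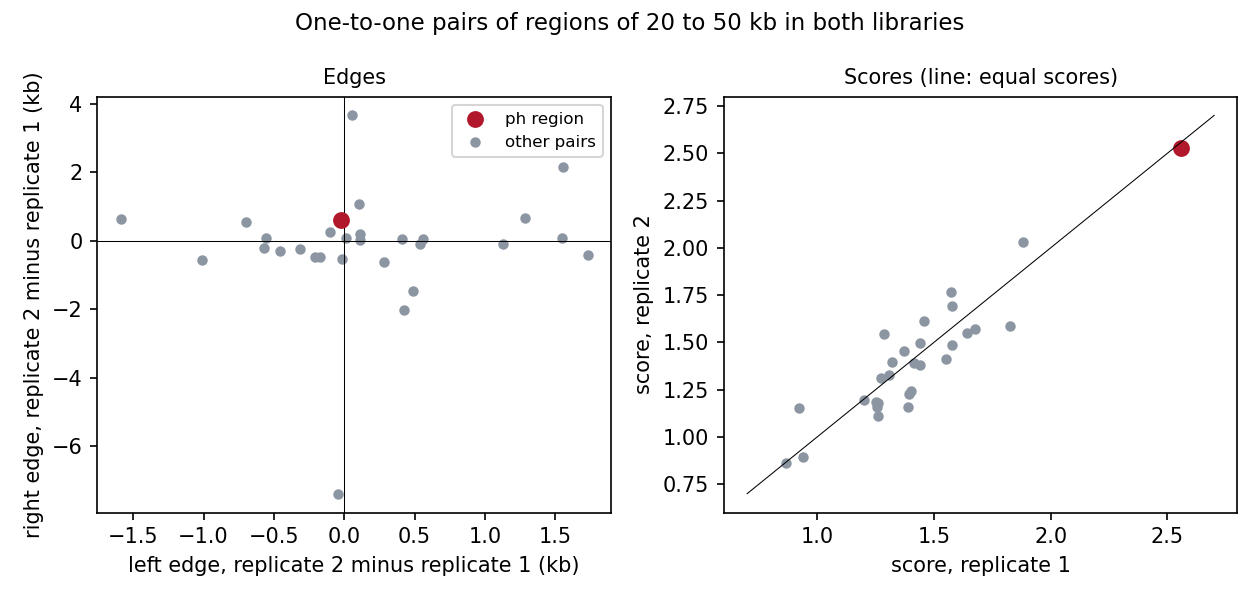
One-to-one pairs of regions of 20 to 50 kb found in both lists, with replicate 2 minus replicate 1 for the left and right edges (left panel, kb) and the scores in both libraries with a line of equal scores (right panel). The ph region, with differences of 26 bases on the left and 613 bases on the right, sits among the other 28 pairs by its edges and above them by its scores of 2.56 and 2.53.

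The ph region stood clear of other enriched sequence on both sides. The next region to its left was the narrow member, at 9.30 kb in replicate 1 and 11.98 kb in replicate 2. To its right the next region was 157.1 kb away in replicate 1 and 57.8 kb away in replicate 2. Neither right-hand region overlapped the other list, so the distances on both sides end at regions of 1360 to 2099 bases found in a single list. Most broad regions had closer company, with medians over the rest of the class of 0.740 kb in replicate 1 and 0.725 kb in replicate 2 to the nearer neighbour. Only 20 of 85 class regions in replicate 1 and 19 of 93 in replicate 2 had 5 kb or more free on both sides, the ph region among them. Counting from the longest distance to the nearer neighbour, it was 17 of 85 in replicate 1 and 13 of 93 in replicate 2, so other broad regions stood farther apart. On the side of its farther neighbour it was 28 of 85 and 42 of 93.

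**Figure D4:**
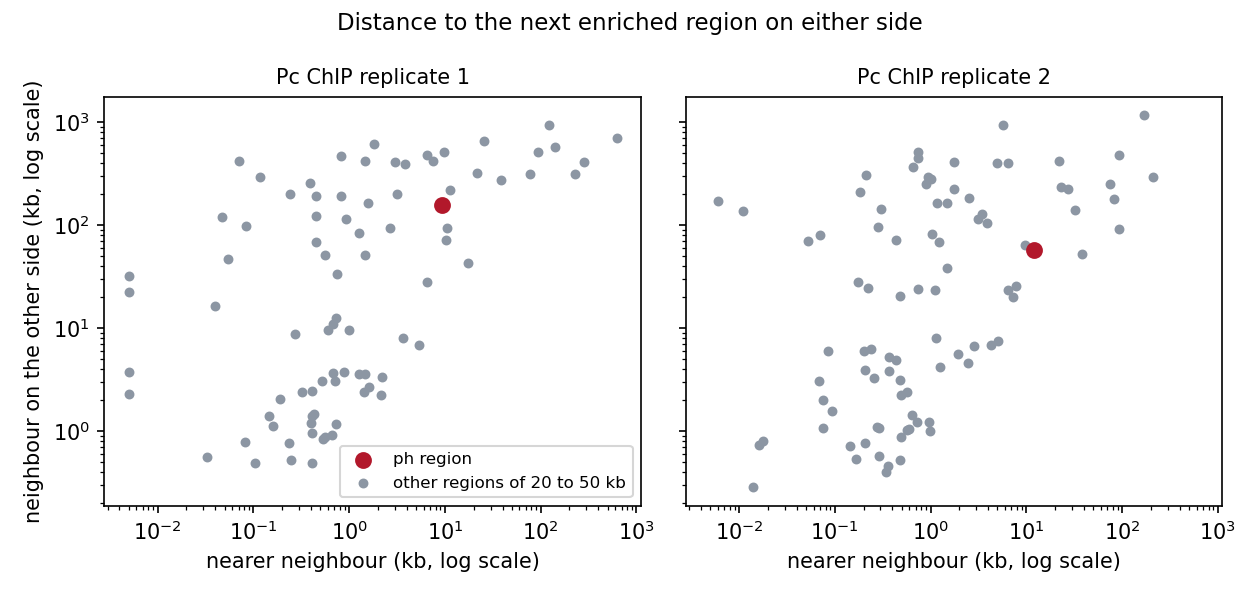
Distance (kb, log scales) from each region of 20 to 50 kb to the next enriched region on its nearer side (horizontal) and on its other side (vertical), in Pc ChIP replicate 1 (left) and replicate 2 (right), leaving out regions with no neighbour on one side (1 in each list) and 1 region of replicate 2 that adjoins its neighbour. The ph region, at 9.30 and 157.1 kb in replicate 1 and at 11.98 and 57.8 kb in replicate 2, lies right of most points but within their spread.

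Other broad blocks were distant. To the left the next region of 10 kb or more lay 1501 kb away in replicate 1 (X 474514 to 509473, score 1.28) and 1500.5 kb away in replicate 2 (X 472924 to 510099, score 1.54). To the right it lay 277.9 kb away in replicate 1 (X 2321105 to 2338454, score 1.31) and 277.1 kb away in replicate 2 (X 2320933 to 2338446, score 1.21). That right-hand block started within 172 bases and ended within 8 bases in the 2 lists. For the other class regions the nearest block of 10 kb or more lay at a median of 24.1 kb in replicate 1 and 23.8 kb in replicate 2, and the ph region ranked 16 of 85 and 19 of 93 from the farthest.

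Between these blocks there were only regions of up to 2.65 kb. On the left there were 12 in replicate 1 (1.30 to 2.65 kb, scores 0.462 to 0.751) and 9 in replicate 2 (1.31 to 2.07 kb, scores 0.538 to 0.662). Of these, 4 and 3 overlapped the other list. On the right there were 2 in replicate 1 and 5 in replicate 2, with 1 of each found in the other list. Their highest score was 0.609 in replicate 1 and 0.880 in replicate 2, far below the 2.56 and 2.53 of the ph region. The flanks were correspondingly sparse. Within 50 kb on either side, 3.62% of the bases were enriched in replicate 1 and 4.59% in replicate 2, against class medians of 29.0% and 28.8%. Of the other class regions, 15 of 84 and 22 of 92 had sparser flanks at that distance. Within 250 kb the shares were 1.45% and 2.41%, against 13.9% and 14.5%, and 10 of 84 and 15 of 92 had sparser flanks. Within 500 kb they were 2.95% and 3.24%, against 10.2% and 10.3%, and 11 of 84 and 13 of 92 had sparser flanks.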

How the data were processed

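Per the labels, the series holds Pc ChIP and input libraries of embryonic chromatin, and per the submitters' processing notes Bowtie 0.12.7 was used. The sources used here do not give the region caller, its threshold, its use of the input or how reads matching both ph genes were treated. Each ChIP library has its own deposited list, on FlyBase r5 per the file headers, with a score per region, deposited by the authors without a scale. Scores were ranked within a list and set side by side between lists. They were also averaged between lists for the ph region and subtracted for the one-to-one pairs. Whether the lists share one scale is not stated. The inputs have no values here.

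Ranks, overlaps and distances were computed in pandas 2.3.3 under Python 3.11.15 with numpy 2.4.6, and plots were drawn with matplotlib 3.10.9. Overlap meant at least 1 shared base, and distances are the bases between region edges. Width 20 to 50 kb includes the lower bound. The measures were tested on simulated data. With 2 libraries of 1 condition there are no groups to test, and the depth is unknown. The members, classes and distances were chosen with earlier results of these data known. Regions named are those in the window, the nearest outside it, the 3 next by score in the width class, and regions at the top of each list, on X or next to the locus, the last kinds chosen after their values were seen. Groups and replicate numbers come from the titles. The experiment numbers in the source names cross the recorded files, and exchanging the lists would only swap the replicate names. Sequences and gene positions on r5 were not used here.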

Additional observations from a re-analysis of the deposited data

How the results depend on the processing

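Of the 46 values recomputed under other choices, 35 were unchanged or stayed within 1 SD of the libraries (counts of regions within 1.5 times) and 11 moved. Edge differences, which have no SD, had to be unchanged. Some of the 35 could not have moved, such as those from leaving out a library, so their number is no measure of stability. The score rank within the width class was 1 in both libraries with regions of 10 to 100 kb, with regions of 25 to 40 kb and with regions under 1 kb apart merged. The first 2 follow from ranks already given. Merging kept the highest score of each merged block, and the nearest neighbour of the ph region was 9.30 kb away in replicate 1 and 11.98 kb in replicate 2. It could therefore hardly change the rank, and none of these choices shows stability. With the window widened by 50 kb on each side, it held 5 regions in replicate 2. The score rank in the replicate 2 list was 2 on X, 2L, 2R, 3L, 3R and 4 only, and 1 on X only. The replicate 1 rank, 2 in the list, was also 1 on X only, a change within 1 SD of the 2 ranks. Counting only neighbours of 2 kb or more, replicate 1 had a left distance of 33.6 kb, and replicate 2 had 832.9 kb on the left and 277.1 kb on the right. With neighbours in the upper 50% by score, the left distance in replicate 1 was 33.6 kb. With neighbours of 10 kb or more, the left distances were 1501.2 and 1500.5 kb, and the right distances 277.9 and 277.1 kb. These shifts follow from the neighbours removed. Leaving out either library gave the value of the other, a width of 32.6 to 33.2 kb and a score of 2.53 to 2.56. With 2 libraries such a value always falls within 1 SD of the mean, so it shows no stability. No paired analysis was possible because no values of the inputs were used here, so ChIP and input of 1 number could not be paired. The planned promoter motifs and protein alignment were not run, since sequences were not used here. Depth is unknown, so a region missing from one list may be unenriched or under the threshold there.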
